A study of Mus musculus with 2 samples.

Results

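Cyclins, cyclin-dependent kinases (CDKs), CDK inhibitors, E2F factors and genes of DNA replication and mitosis were followed in a table of transcript 5′ ends from mouse heart. Members were chosen by a rule on gene names, with earlier results of these data known, and they made up 88 of 30385 listed entries. The names covered numbered cyclins of the A to L classes, numbered CDKs, CDK inhibitors, MCM proteins and E2F factors, together with single genes such as Mki67, Top2a, Pcna and the Aurora and Polo-like kinases. By the role lists used here 77 entries belonged to these classes, and 11 matched the names but encode proteins of other kinds. The heart was sampled in 2 groups, wild-type (WT) and MHC403/+ mice, which carry 1 mutant copy of the cardiac myosin heavy chain gene and model hypertrophic cardiomyopathy. Mice of both groups were of the 129/SvEv strain, 8 to 16 weeks old, and all had been given CsA by injection (15 mg/kg in each of 2 daily doses, over 2 weeks), which is cyclosporine A, a drug that blocks calcineurin signalling. The assay, 5′RNA-seq, leaves polyA RNA and cDNA unfragmented so that reads gather near transcription starts. Animals of a genotype, their number not stated, were pooled into 1 library each, so there was no replicate check, no difference was tested, and genotype cannot be told apart from library. A response to CsA that differs by genotype cannot be told apart from the genotype either, since untreated hearts are not analysed here.

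The libraries held 5468677 reads (MHC403) and 5481123 reads (WT). Each ratio divides the MHC403 count by the WT count, once both are scaled to these totals, and ranges in brackets are exact (Clopper-Pearson) 95% counting intervals, which leave out variation between animals and in amplification. Entries are called measured where the higher library holds 50 reads or more, and there were 9507 of them, with a median log2 ratio of 0.57. Myh6, the alpha-myosin heavy chain, had 55171 reads against 132965 in WT, but reads are counted per gene and not per allele, so this does not check the genotype. All 8 cardiomyocyte markers were measured, and their summed level was 39881.5 RPM (reads scaled to a common library size) in MHC403 and 62797.9 in WT. Single markers were divided, with 4 of the 8 higher in each library. In whole tissue, fewer cells of a type and less RNA per cell cannot be told apart. Positions of genes are on mm9, and those of promoters on GRCm38.p6.

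Cyclins are regulatory subunits that switch on CDKs in sequence. D-type cyclins with Cdk4 or Cdk6 inactivate the retinoblastoma protein in G1, which frees E2F factors to drive transcription of replication genes, then E- and A-type cyclins act in S phase and A- and B-type cyclins with Cdk1 in mitosis. CDK inhibitors of the Cip/Kip and Ink4 families hold this sequence back. Most cardiomyocytes leave the cycle soon after birth, while other cells of the heart can still divide.

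Of the 88 entries, 42 were measured and 46 were not, and 6 of the latter had no read in either library. Among the 42, 10 were at least 2-fold higher in MHC403 (23.8%), against 26.1% of all measured entries. No measured member was at least 2-fold lower, against 2.43% of all. The median log2 ratio of the 42 was 0.65. These shares lie near the background, so as a group the better-covered genes did not stand apart from the rest of the transcriptome. Scaling by the median of ratios shifts each log2 value by -0.55. There, 2 members were higher, Cdkn1a and Plk2, against 10.9% of all measured entries, and 3 were lower, Cdk5rap1, Cdkn1c and Cdkn2c, against 7.59%. TMM scaling gave 2 and 3 as well, with 10.9% and 7.55% of all entries.

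**Figure D1:**
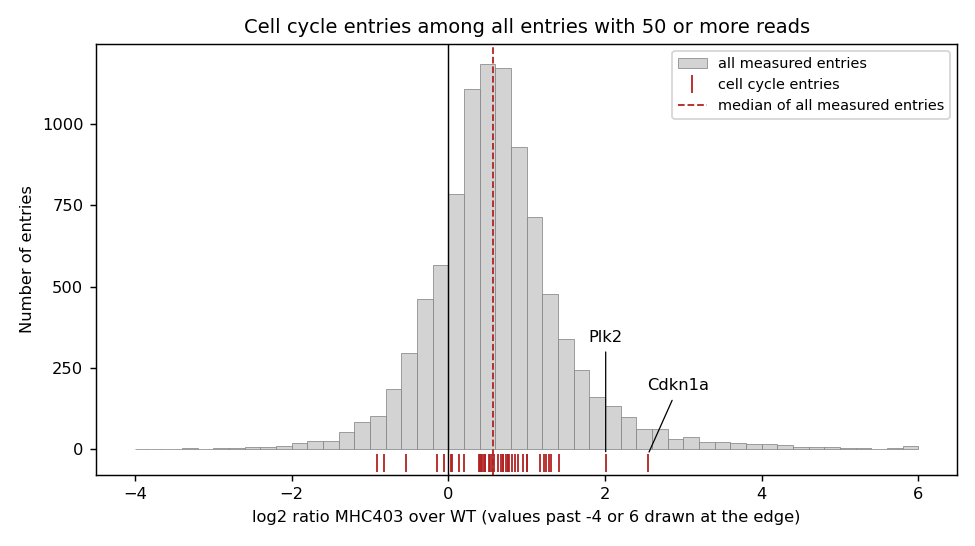
Distribution of log2 ratios (MHC403 over WT, x axis) over the 9507 measured entries, with the number of entries on the y axis. Red ticks under the bars are the 42 measured cell cycle entries, which crowd around the median of all entries (dashed line, 0.57) while Plk2 and Cdkn1a lie to the right of the others.

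Among D-type cyclins, Ccnd1 (cyclin D1, chromosome 7, 152115836 to 152125830) was higher, and the other two were within 2-fold. Ccnd1 had 151 reads in MHC403 and 57 in WT, 2.66-fold higher (1.95 to 3.67). Ccnd3 (chromosome 17, 47642000 to 47736637) had 389 and 245 reads, a ratio of 1.59 (1.35 to 1.87). Ccnd2 (chromosome 6, 127075727 to 127101066) had 624 and 570, a ratio of 1.10 (0.98 to 1.23). The 3 genes encode proteins that bind the same kinases, yet their counting intervals did not meet: that of Ccnd1 lay wholly above that of Ccnd3, and that of Ccnd3 above that of Ccnd2. The start window of Ccnd2 overlaps that of an entry listed as CYL2, which had 246 and 251 reads, so some Ccnd2 reads may be listed under both names. With median-of-ratios scaling Ccnd1 had a ratio of 1.82, Ccnd3 1.09 and Ccnd2 0.75.

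Cyclins of S phase and mitosis had few reads, and most of them lay in the MHC403 library. Ccne2 (cyclin E2, which starts S phase) had 21 reads in MHC403 and 1 in WT, a ratio of 21.0 (3.39 to 870.4). Ccna2 (cyclin A2, active in S phase and up to mitosis) had 19 and 2, a ratio of 9.52 (2.30 to 84.3). The mitotic cyclin Ccnb2 had 12 and 0, at least 4.01-fold higher when WT is set to a floor of 3 counts in the library, with an exact interval that starts lower, at 2.78. Ccnb1 had 3 and 0, too few for a ratio. Ccne1 went the other way by a single read, with 2 and 3, and Ccna1 and Ccnb3, which are best known from germ cells, had none. Summed over the 7 listed A-, B- and E-type cyclins there were 57 reads against 6, 9.52-fold (4.12 to 27.0) higher. The mitotic kinase Cdk1 (chromosome 10, 68799383 to 68815660), the catalytic partner of the A- and B-type cyclins, had 21 reads against 0, at least 7.02-fold higher against the same floor, with an exact interval from 5.22 upward.

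Promoters of such genes are known to carry CCAAT boxes, bound by NF-Y, a cell cycle homology region (CHR) near the start, bound by the DREAM and MuvB complexes, and E2F sites. RefSeq promoter windows of 300 bases were found for 72 of the 86 genes, as 81 starts. Words searched on both strands were TTTGAA for the CHR, CCAAT for the CCAAT box, TTCCCGC and TTGGCGC for E2F, and GGGCGG for the GC box. Most reads of several members were in MHC403, and not all of their promoters are shown. The following are examples, with Mcm6 added as a helicase gene with 9 reads against 0. Those of Cdk1, Ccnb2, Top2a and Mki67 hold more CHR words than any other member promoter, so they are not typical. A CHR word was present in 16 of the 81 member promoters. Each sequence runs 5′ to 3′ from 250 bases before the start to 30 after it, and capitals mark CHR, CCAAT and E2F words.
Cdk1 (chr10:69352883-69353162, minus strand): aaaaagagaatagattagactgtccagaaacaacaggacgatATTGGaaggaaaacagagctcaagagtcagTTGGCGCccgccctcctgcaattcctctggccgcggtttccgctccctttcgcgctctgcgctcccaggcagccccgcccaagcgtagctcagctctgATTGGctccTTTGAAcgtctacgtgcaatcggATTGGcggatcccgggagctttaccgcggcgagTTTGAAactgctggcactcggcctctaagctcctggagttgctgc
Ccnb2 (chr9:70421525-70421804, minus strand): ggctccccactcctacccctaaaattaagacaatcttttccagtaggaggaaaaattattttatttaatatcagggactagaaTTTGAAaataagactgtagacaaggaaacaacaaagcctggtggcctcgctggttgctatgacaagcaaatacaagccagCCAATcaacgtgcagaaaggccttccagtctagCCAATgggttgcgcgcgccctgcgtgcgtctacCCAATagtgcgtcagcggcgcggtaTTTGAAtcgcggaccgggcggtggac
Top2a (chr11:99024160-99024439, minus strand): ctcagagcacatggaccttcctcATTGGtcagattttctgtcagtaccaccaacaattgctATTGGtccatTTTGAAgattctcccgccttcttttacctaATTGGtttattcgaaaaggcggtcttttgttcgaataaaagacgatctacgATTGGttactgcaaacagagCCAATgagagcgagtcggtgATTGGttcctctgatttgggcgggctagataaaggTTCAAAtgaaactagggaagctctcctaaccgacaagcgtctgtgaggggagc
Mki67 (chr7:135716350-135716629, minus strand): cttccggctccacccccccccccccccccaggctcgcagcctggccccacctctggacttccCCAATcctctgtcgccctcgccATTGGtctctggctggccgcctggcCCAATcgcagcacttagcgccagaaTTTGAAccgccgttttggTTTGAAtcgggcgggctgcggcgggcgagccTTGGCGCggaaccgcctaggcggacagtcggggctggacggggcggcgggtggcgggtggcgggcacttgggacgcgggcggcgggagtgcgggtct
Mcm6 (chr1:128359676-128359955, minus strand): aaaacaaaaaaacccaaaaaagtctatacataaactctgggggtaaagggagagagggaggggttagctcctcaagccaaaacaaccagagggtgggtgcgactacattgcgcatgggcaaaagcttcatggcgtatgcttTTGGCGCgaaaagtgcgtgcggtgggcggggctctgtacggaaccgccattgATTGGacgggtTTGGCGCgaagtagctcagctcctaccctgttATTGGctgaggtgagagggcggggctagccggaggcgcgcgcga

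Cdk1, Ccnb2 and Mki67 each held 3 CCAAT and 2 CHR words, Top2a 6 and 2, and Mcm6 had 2 CCAAT and 2 E2F words with no CHR. Promoters not shown of genes with most reads in MHC403 varied. That of Cdc20 held 2 CCAAT and 1 CHR words, that of Rrm2 only 1 CCAAT and that of Cdkn2b only 1 CHR. That of Birc5 held no CHR, CCAAT or E2F word. Promoters of genes with more reads in WT varied as well. That of E2f8 held 1 CHR, 1 CCAAT and 1 E2F word, and that of Ccng1 held 4 CCAAT. The first listed start of Mcm7 held 3 CCAAT and 2 E2F words, and that of Ccne1 held none of the 3 kinds. The CHR word was present in 13 of 43 promoters of members under 50 reads (30.2%), in 3 of 38 promoters of measured members (7.89%) and in 17.9% of all 32851 promoters. CCAAT was in 67.4% of the first set, in 19 of 38 promoters of the second and in 37.4% of all, and an E2F word in 39.5%, 13.2% and 6.81% of the 3 sets. GC boxes were in 79.1% and 78.9% of the member sets and in 35.7% of all promoters, so the members' promoters also differ from the average in a word that is not tied to the cell cycle. All 9 promoters of MCM genes held CCAAT and 6 held an E2F word. The E2F word TTGGCGC can share letters with ATTGG, the CCAAT box read on the other strand, and did so in 4 of the 81 promoters. A word match describes the sequence and shows no binding.

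The remaining cyclins act mostly outside the core cycle. Ccnl1 (cyclin L1, a partner of Cdk11 in splicing) had 138 reads in MHC403 and 56 in WT, 2.47-fold higher (1.80 to 3.43), and its relative Ccnl2 had 316 and 204, a ratio of 1.55 (1.30 to 1.86). Ccng2 had 102 and 63 reads, a ratio of 1.62 (1.17 to 2.26). Ccng1, a p53 target, had 883 and 979 reads, a ratio of 0.90 (0.82 to 0.99), well below the typical measured entry. The 2 G-type cyclins therefore lay on opposite sides of a ratio of 1. Under median-of-ratios scaling they stood at 1.11 for Ccng2 and 0.62 for Ccng1, though the counting interval of Ccng2 then held 1.

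Among kinases of the cell cycle, the 2 measured genes lay close to the median of the transcriptome. Cdk2, which works with cyclins E and A, had 76 reads in MHC403 and 45 in WT, a ratio of 1.69 (1.16 to 2.50). Cdk4 had 164 and 125, a ratio of 1.31 (1.04 to 1.67), and Cdk6, the other partner of D-type cyclins, had 21 and 11, a ratio of 1.91 (0.88 to 4.39). Cdk3 had no reads. Cdk1 was thus the only kinase of this group with reads in just 1 library.

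CDKs that act in transcription or outside the cycle were mostly within 2-fold. Cdk9, the kinase that releases paused RNA polymerase II, had 228 reads in MHC403 and 98 in WT, 2.33-fold higher (1.83 to 2.99). Cdk8 of the Mediator complex (listed as Cdk8chr5+) had 81 and 36, 2.26-fold higher (1.51 to 3.44). Its paralog Cdk19 had 83 and 81, a ratio of 1.03 (0.75 to 1.41), so the 2 Mediator kinases differed by more than their counting intervals. A second entry named Cdk8 on chromosome 10 has windows that overlap those of Cdk19, with 76 and 74 reads. Cdk7, which activates other CDKs, had a ratio of 1.76 (1.27 to 2.45), with 107 and 61 reads. Cdk5, Cdk10, Cdk11b, Cdk12, Cdk13, Cdk16, Cdk17 and Cdk18 had ratios from 1.36 (Cdk16, 607 and 446 reads) to 1.80 (Cdk10, 81 and 45 reads). Cdk14 had 26 and 12 reads, Cdk20 had 9 and 8, and Cdk15 none. Over the 15 genes 2498 reads faced 1660, a ratio of 1.51 (1.42 to 1.61), where all measured entries summed to 0.99. The median log2 ratio of the 12 measured genes was 0.72, against 0.57 of all measured entries. With median-of-ratios scaling none of the 15 passed 2-fold, and the ratio of Cdk9 was 1.60 and that of Cdk8 1.54.

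The measured CDK inhibitors held both the highest and the lowest ratio of the 42 measured members. Cdkn1a (p21, a Cip/Kip inhibitor induced by p53 and by growth arrest signals; chromosome 17, 29227931 to 29237667) had 983 reads in MHC403 and 169 in WT, or 179.8 and 30.8 RPM, 5.83-fold higher (4.95 to 6.90). It had the highest ratio of the 42 measured members and ranked 278 from the top of 9507. The other Cip/Kip genes did not share this. Cdkn1b (p27; chromosome 6, 134870419 to 134875543) had 242 and 253 reads, a ratio of 0.96 (0.80 to 1.15). Cdkn1c (p57, an imprinted gene; chromosome 7, 150644244 to 150646955) had 62 and 117, 1.88-fold lower (1.37 to 2.60). The counting intervals of the 3 Cip/Kip genes did not meet. With median-of-ratios scaling their ratios were 3.99, 0.66 and 0.36, so Cdkn1c then passed 2-fold lower.

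Cdkn1a has 3 annotated starts in the table, whose reads were counted together, and RefSeq lists 2. The promoter of the downstream RefSeq start is shown, since Cdkn1a had the highest ratio among measured members, with GC boxes in capitals. It had none of the CHR, CCAAT or E2F words, nor did the other start.
Cdkn1a (chr17:29093519-29093798, plus strand): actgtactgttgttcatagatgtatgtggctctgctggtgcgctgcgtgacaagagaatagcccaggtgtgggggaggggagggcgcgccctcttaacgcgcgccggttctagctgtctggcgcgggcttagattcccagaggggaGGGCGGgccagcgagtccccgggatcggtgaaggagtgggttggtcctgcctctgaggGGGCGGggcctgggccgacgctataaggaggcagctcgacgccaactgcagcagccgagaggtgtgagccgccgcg

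The Ink4 inhibitors, which block Cdk4 and Cdk6, were unlike one another. Cdkn2b (p15, a TGF-beta target) had 19 reads in MHC403 and 2 in WT, a ratio of 9.52 (2.30 to 84.3). Cdkn2d (p19; chromosome 9, 21092908 to 21095653) had 106 and 53, exactly at the 2-fold line with 2.00 (1.43 to 2.84). Cdkn2c (p18) had 42 and 61, 1.45-fold lower (0.96 to 2.20). A second Cdkn2d entry lies far from the first on chromosome 9, on the plus strand (123836860 to 123839607). It nearly repeats the counts of the first (102 and 53) and gave 1.93, so Cdkn2d passed 2-fold in only 1 of its entries. Cdkn2a had 2 and 0 reads, and the phosphatase Cdkn3, which also acts on CDKs, had 3 and 0. Summed over the 8 inhibitors the ratio was 2.23 (2.03 to 2.45), with 1459 and 655 reads. Cdkn1a gave most of the MHC403 reads (983), but in WT it gave 169, fewer than the 253 of Cdkn1b.

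**Figure D2:**
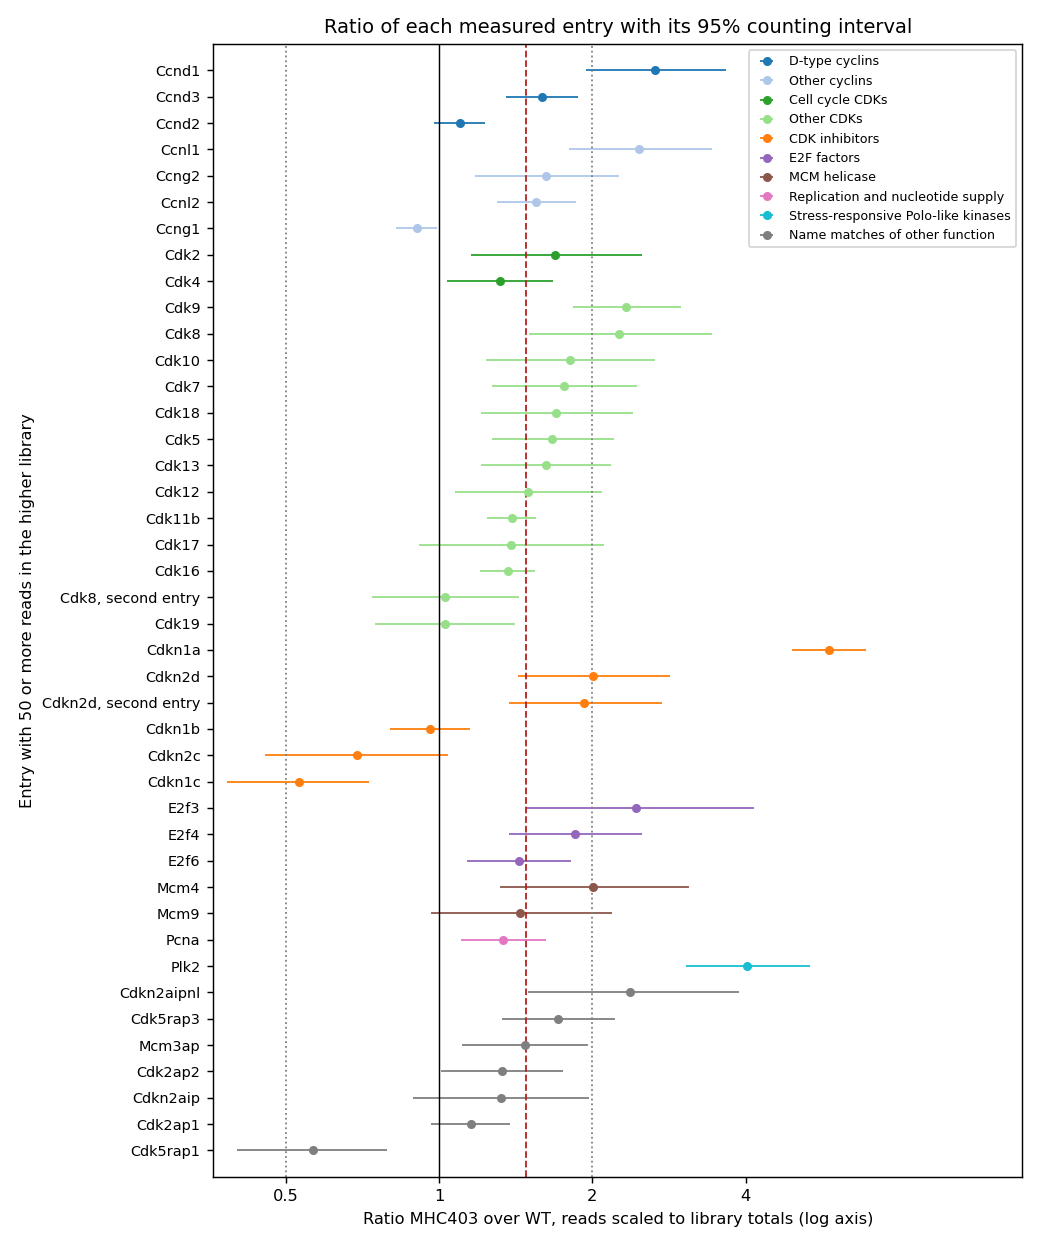
Ratio of MHC403 over WT (log x axis) for each of the 42 measured entries (y axis), coloured by role, with bars for the 95% counting interval. Dotted lines mark 2-fold, the solid line a ratio of 1 and the dashed line the median of all measured entries (1.48); Cdkn1a and Plk2 lie farthest right, and Cdkn1c and Cdk5rap1 farthest left.

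Plk2, a Polo-like kinase induced by stress and serum, was the other measured member that kept a 2-fold excess with median-of-ratios scaling. It had 261 reads in MHC403 and 65 in WT (chromosome 13, 111185252 to 111191051), 4.02-fold higher (3.06 to 5.37), or 2.75-fold with median-of-ratios scaling. It ranked 540 of 9507. Its relatives were lower in reads and nearer to 1: Plk3 had 18 and 13, a ratio of 1.39 (0.64 to 3.08), and the mitotic kinase Plk1 had 13 and 7, a ratio of 1.86 (0.69 to 5.51). The windows of Plk1 overlap those of Dctn5.

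E2F factors fall into activators (E2f1 to E2f3) and repressors (E2f4 to E2f8). The activator E2f3 had 56 reads in MHC403 and 23 in WT, 2.44-fold higher (1.48 to 4.16), and shares a window with an entry named E2F3 that had 18 and 0. E2f2 had 12 and 1, a ratio of 12.03 (1.78 to 514.1), and E2f1 6 and 3. All 3 activators had more reads in MHC403, and so did the repressors E2f4, E2f6 and E2f7. Over all entries, 7669 of 9507 measured ones had the higher scaled count there. Under 50 reads, 6007 of 8824 entries with a read did. E2f1 and E2f2 rest on few reads, and the interval of E2f1 (0.43 to 12.4) holds 1. Of the repressors, E2f4 had 131 and 71 reads, a ratio of 1.85 (1.38 to 2.50), and E2f6 179 and 125, a ratio of 1.44 (1.14 to 1.82). E2f5 had 7 and 7, and E2f7 8 and 3. E2f8 (chromosome 7, 56121799 to 56136966) ran against the rest, with 3 reads in MHC403 and 16 in WT, 5.32-fold lower (1.52 to 28.5). E2f8, a repressor without a DP partner, was the only member past 2-fold lower among those with 10 to 49 reads. Its window overlaps an unnamed transcript that had no reads.

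The MCM2 to MCM7 proteins form the ring helicase that licenses replication origins. Mcm4 had 70 reads in MHC403 and 35 in WT, a ratio of 2.00 (1.32 to 3.10) and the only measured gene of the 6. Mcm3 had 37 and 12 reads, a ratio of 3.09 (1.58 to 6.51), and Mcm2 27 and 9, a ratio of 3.01 (1.37 to 7.27). Mcm5 had 25 and 12, a ratio of 2.09 (1.01 to 4.56), and Mcm6 9 and 0, at least 3.01-fold higher by that floor, though its exact interval starts at 1.98. Mcm7 did not follow the other 5 subunits, with 39 and 48 reads and a ratio of 0.81 (0.52 to 1.27). Summed over the 6 subunits 207 reads faced 116, a ratio of 1.79 (1.42 to 2.26). Of the related proteins outside the ring, Mcm9 had 62 and 43 reads, Mcm10 had 4 and 0, and Mcm8 had 2 and 2.

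Other replication genes differed in how they were covered. Pcna, the sliding clamp of DNA polymerase, which also serves in repair, had 252 reads in MHC403 and 189 in WT, a ratio of 1.34 (1.10 to 1.62), below the median of all measured entries. Rrm1, the large subunit of ribonucleotide reductase, had 40 and 26, a ratio of 1.54 (0.92 to 2.63), and Rrm2, its S-phase subunit, 15 and 4, a ratio of 3.76 (1.20 to 15.6). Mki67, the Ki-67 antigen of dividing cells, had 18 and 3 reads, a ratio of 6.01 (1.76 to 31.9). Top2a, the topoisomerase of chromosome segregation, had 11 and 2, a ratio of 5.51 (1.20 to 51.2), and Cdc6, which loads the MCM ring, 5 and 1. Mki67, Top2a, Rrm2 and Cdc6 thus had most of their few reads in MHC403, whereas Pcna and Rrm1 lay closer to a ratio of 1. The interval of Cdc6 (0.56 to 237.0) holds 1, and those of Rrm1 and Rrm2 overlap, so this contrast is weakly determined.

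Mitotic regulators were sparse. Birc5 (survivin) had 12 reads in MHC403 and 2 in WT, a ratio of 6.01 (1.34 to 55.3), and Cdc20, which activates the anaphase-promoting complex, 7 and 1, a ratio of 7.02 (0.90 to 316.2). The phosphatases Cdc25a and Cdc25b had 30 and 23 reads and 18 and 10 reads, with ratios of 1.31 (0.73 to 2.36) and 1.80 (0.79 to 4.37). Aurka had 5 and 0, Aurkb had 3 and 4, and Bub1 none. Summed over the 8 genes 88 reads faced 47, a ratio of 1.88 (1.30 to 2.73).

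Among the 24 members with 10 to 49 reads in the higher library, 14 were at least 2-fold higher in MHC403 (58.3%), against 35.0% of all entries in that range of reads. They were Birc5, Ccna2, Ccnb2, Ccne2, Cdk1, Cdk14, Cdkn2b, E2f2, Mcm2, Mcm3, Mcm5, Mki67, Rrm2 and Top2a. One, E2f8, was at least 2-fold lower (4.17%), against 6.03% of all. Median-of-ratios scaling left 12 of 24 higher, without Cdk14 and Mcm5, against 20.2% of all entries, and E2f8 lower against 15.0%. Entries come into this range by their higher library. Most of the 14 had under 10 reads in WT and came in only through MHC403, where they are higher. E2f8 likewise came in only through WT. These shares therefore describe the range and are no support for an excess. At 10 reads in each library the counting interval runs from 0.37 to 2.68, so single genes of this class are weakly determined. Summed over all 46 members under 50 reads there were 580 reads in MHC403 and 297 in WT, a ratio of 1.96 (1.70 to 2.26). The same sum over every entry under 50 reads gave 1.39 (1.38 to 1.41). Among the 40 low members with a read, 35 had the higher scaled count in MHC403, E2f5 and Mcm8 by scaling alone, where 6007 of 8824 such entries of any kind did, and 5 in WT, namely Aurkb, Ccne1, Cdk5rap2, E2f8 and Mcm7. Of 9 members with reads in a single library, all had them in MHC403, while over all entries under 50 reads 1262 had reads in MHC403 only and 971 in WT only.

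**Figure D3:**
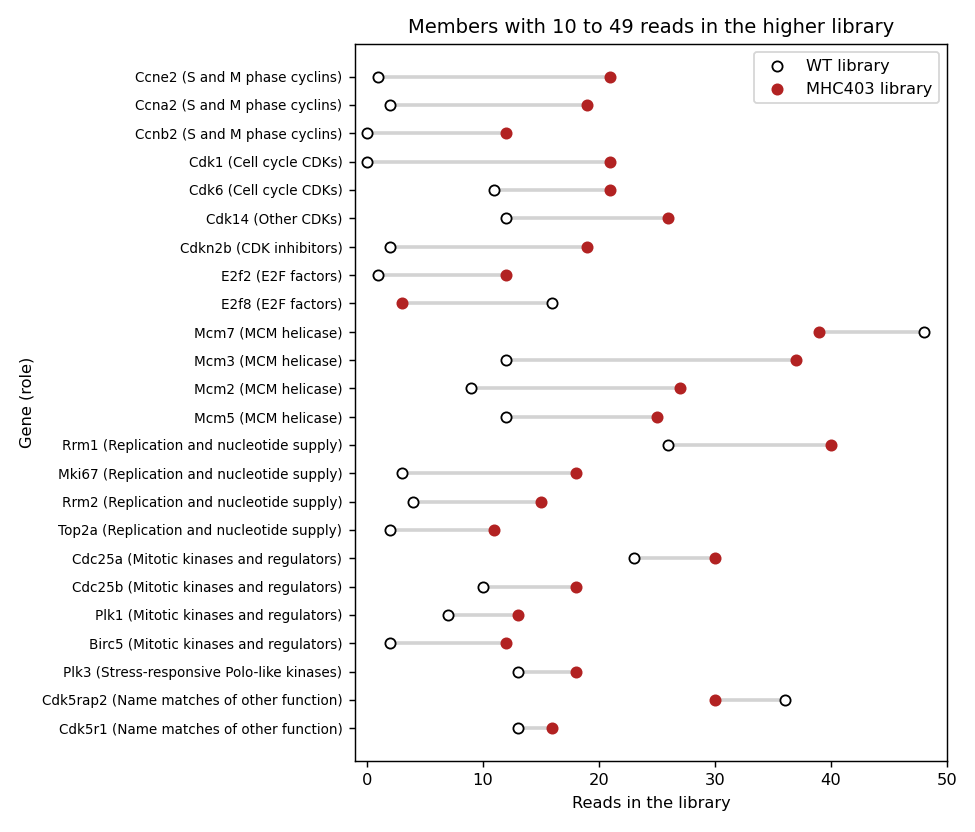
Reads in the WT library (open circles) and the MHC403 library (red) for the 24 members with 10 to 49 reads in the higher library, grouped by role on the y axis, with reads on the x axis. WT counts of Cdk1 and Ccnb2 are 0, and E2f8, Mcm7 and Cdk5rap2 are the genes with more reads in WT.

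The 11 entries that match a name pattern but lie outside the role lists had in sum 928 and 743 reads, a ratio of 1.25 (1.14 to 1.38). Cdkn2aipnl had 64 and 27, 2.38-fold higher (1.49 to 3.88). Cdk5rap1, an enzyme that modifies mitochondrial tRNA, had 57 and 101, 1.77-fold lower (1.27 to 2.49), and Cdk5rap3 had 171 and 100, a ratio of 1.71 (1.33 to 2.22). Cdk2ap1, Cdk2ap2, Cdkn2aip and Mcm3ap had ratios from 1.15 (Cdk2ap1, 275 and 239 reads) to 1.47 (Mcm3ap, 125 and 85 reads). Cdk5rap2, Cdk5r1 and Ccnb1ip1 had 30 and 36, 16 and 13, and 2 and 0 reads, and Cdk5r2 none. Cdk5rap3 and Mcm3ap share windows with other entries.

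Set side by side, 3 of 12 role sums were at least 2-fold higher in MHC403, those of S and M phase cyclins, CDK inhibitors and stress-responsive Polo-like kinases. The last 2 were carried by Cdkn1a and Plk2. The sum of CDK inhibitors, 2.23, came under 2-fold with the other scalings, at 1.53 with median-of-ratios and with TMM and at 1.82 without mitochondrial reads, which left 2 of 12. D-type cyclins summed to 1.34 (1.22 to 1.46) and the other cyclins to 1.11 (1.03 to 1.19), where all measured entries summed to 0.99. A sum weighs genes by their reads and is not the same measure as the median entry, 1.48. By the median log2 ratio, D-type cyclins stood at 0.67 and the other cyclins at 0.67, against 0.57 of all measured entries. Sums of E2F factors, MCM genes and replication genes were 1.62 (1.38 to 1.90), 1.71 (1.40 to 2.09) and 1.52 (1.28 to 1.81). All 3 intervals held the 1.48 of the median entry, again a different measure.

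**Figure D4:**
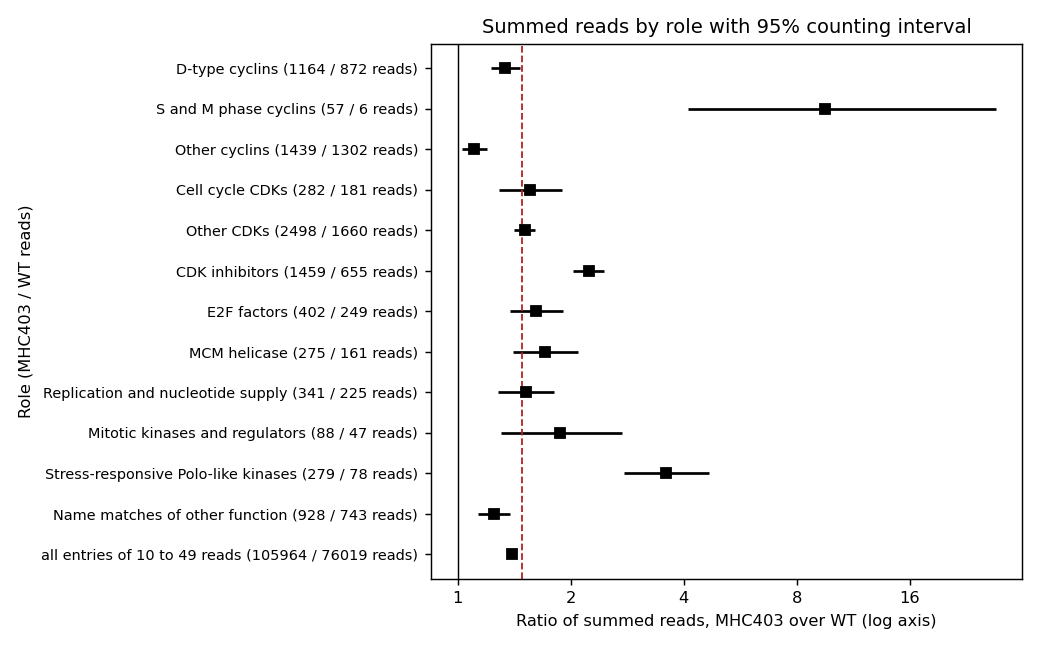
Ratio of summed reads (MHC403 over WT, log x axis) for each role (y axis, with its reads), bars showing the 95% counting interval, beside all entries of 10 to 49 reads. The S and M phase cyclins lie farthest right at 9.52 on 57 and 6 reads. The dashed line is the median measured entry, 1.48, which is a value per entry and not a sum.

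Other genes of the same pathways were read from lists that hold no member. Of the p53 list (p53, its regulators and targets such as arrest and apoptosis genes), 11 of 18 measured genes exceeded 2-fold in MHC403, against 26.1% of all measured entries, none did in WT, against 2.43%, and the median log2 ratio was 1.22. Gadd45g, a growth arrest gene, had 474 reads in MHC403 and 55 in WT, 8.64-fold higher (6.52 to 11.6). Phlda3, an Akt inhibitor, had 163 and 27, a ratio of 6.05 (4.01 to 9.46), Trp53inp1 had 126 and 30, a ratio of 4.21 (2.81 to 6.50), and the antiproliferative gene Btg2 had 453 and 141, a ratio of 3.22 (2.66 to 3.92). Median-of-ratios scaling left 6 genes at least 2-fold higher and put 2 lower, where 10.9% and 7.59% of all entries were.

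Among other mitotic genes 2 of 5 measured genes, Cks1b (86 and 36 reads) and Cenpa (139 and 64 reads), were at least 2-fold higher, names chosen after their values were seen. Under median-of-ratios scaling neither passed 2-fold, nor did the other 3. The 33 genes of that list under 50 reads had 258 reads in MHC403 and 77 in WT together, 3.36-fold higher (2.59 to 4.39). They included Ube2c, which feeds the anaphase-promoting complex, with 28 and 3 reads, and Cks2, a Cdk1-binding subunit, with 26 and 1. Smc2, of the condensin complex, had 15 and 2, and Cdca3 12 and 0. Other replication factors showed less: 1 of 12 measured genes was at least 2-fold higher, the clamp loader subunit Rfc3 (50 and 7 reads), and the median log2 ratio was 0.18. The 30 under 50 reads summed to 452 and 284, a ratio of 1.60 (1.37 to 1.86), with Fen1 (45 and 14), Tyms (17 and 3) and Uhrf1 (16 and 3) among them.

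In the list of retinoblastoma family, DREAM and E2F partners none of 5 measured genes passed 2-fold, with a median log2 ratio of 0.45. Rbbp4 had 389 and 242 reads, and Lin37 77 and 45. Foxm1, a transcription factor of mitotic genes, had 15 and 4, and Lin9 22 and 9. Among ubiquitin ligases and checkpoint kinases 1 of 17 measured genes was at least 2-fold higher, Wee1, the kinase that inhibits Cdk1, with 206 and 44 reads and a ratio of 4.69 (3.37 to 6.66). Other named genes of this list lay within 2-fold, among them the anaphase-promoting complex genes Cdc16 (144 and 77) and Cdc27 (135 and 75) and the ligase subunit Rbx1 (384 and 224).

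Markers of cell types were read from the same libraries. Macrophage markers were at least 2-fold higher in 10 of 11 measured genes, and the 13 listed summed to 843 RPM in MHC403 and 280.2 in WT, with Cd68 at 249 and 45 reads. Fibroblast markers were higher in 8 of 11, with sums of 4051 and 591 RPM, and Postn at 1103 and 19 reads. Smooth muscle and pericyte markers were higher in 3 of 7, with 534 and 328 RPM. None of 10 endothelial markers passed 2-fold, with 774 and 606 RPM, and 1 of 3 measured erythroid genes did, with 2550 and 1520 RPM. Of 11 lymphocyte markers none was measured, and Cd3d, Cd79b and Ms4a1 were at 0 in both libraries, with sums of 7.31 and 3.83 RPM. Of the 8 cardiomyocyte markers 2, Myh6 and Myl2, were at least 2-fold lower, while Actc1, the cardiac alpha-actin, had a ratio of 1.85 (1.81 to 1.88) on 30038 and 16307 reads. Over all measured entries 26.1% were at least 2-fold higher and 2.43% lower. Median-of-ratios scaling left 6 macrophage, 7 fibroblast, 2 smooth muscle and 0 erythroid markers higher, and put 4 cardiomyocyte and 1 endothelial markers lower. The part of these cells in the reads of the cyclins, Cdk1, Mki67 and the other members was not tested.

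The authors' deposited table also gives each gene a start-site score of unstated formula. Of 46 members with at least 20 reads in both libraries 14 had a score above 0 (30.4%), against 34.7% of 10483 entries with such reads. In the authors' deposited table the highest scores among members were 35 for Ccng1, 26 for Cdkn2c and 24 for Cdk2ap1, where scores over all entries reached 293. Ccng1 and Cdk2ap1 have a single annotated start and Cdkn2c has 2. Cdkn1a, with 3 annotated starts, scored 0 in the authors' deposited table, and Plk2, with 2, scored 1. The 2 measured members with the highest ratios thus had scores of 0 or 1.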

How the data were processed

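Heart RNA was read in 2 pooled libraries, 1 per genotype. Per the labels' protocols, intact polyA RNA was size-selected and linearly amplified without fragmentation. TopHat 1.0.14 and mm9 are named in the submitters' processing notes, whereas the read counter and its strand setting are not given there. The authors deposited read counts per gene as whole numbers. The authors' deposited RPM values are those counts scaled to the summed reads, and recomputing them gave differences of at most 4.94e-06. Fold values in the deposited table divide the RPM columns and are blank for 22 members and 999 for 2 whose WT count is 0. The authors' deposited p-value was not used, since its test is not stated, and the deposited score was used as a description.

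Ratios, exact intervals and figures were computed with Python 3.11.15, scipy 1.17.1 and matplotlib 3.10.9, and TMM factors with edgeR 4.0.16. The interval method was tested on simulated data. At 50 reads in each library it runs from 0.66 to 1.51. With 1 library per genotype no test was made. Where a library had 0 reads, 3 counts took its place as the floor in that library, and genes at or under 3 reads in both got no ratio. Intervals and floors cover counting error only. Gene starts are written 1-based. The entries Cdkn2dchr9+ and Cdk8chr10+, which repeat reads of other entries, were left out of sums. Start windows of 9 members overlap other entries, and antisense reads could not be told apart.

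Members and lists were chosen with earlier results of these data known. All measured members are named, and for each other list up to 4 genes whose interval lay farthest from a ratio of 1. Cks1b, Cenpa and the cyclin partners of kinases were added after their values were seen. Alternatives were other scalings, read minimums of 20, 200 and none, and leaving out overlapping entries, copies or name matches outside the role lists. Promoters are from RefSeq on GRCm38.p6. No promoter was matched for Aurkb, Ccna2, Ccnd1, Ccnd2, Ccne2, Cdk17, Cdk19, Cdk3, Cdk5, Cdk5r1, Cdkn1c, E2f4, E2f5 and Mcm4.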

Additional observations from a re-analysis of the deposited data

How the results depend on the processing

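Scaling and the read minimum moved the counts most. The 10 measured members at least 2-fold higher became 2 under either TMM or median-of-ratios scaling, 4 with totals that leave out mitochondrial reads (16.1% of all measured entries), 16 of 53 with a minimum of 20 reads (27.5% of all), 3 of 12 with 200 (24.7%) and 29 of 76 with none (30.1%). The 0 lower became 3, 3 and 2 with those scalings and 1 with no minimum. The median log2 ratio of 0.65 became 0.10 (median-of-ratios), 0.11 (TMM) and 0.36 (no mitochondrial reads), and 0.46 with a minimum of 200 reads. The summed ratio of 1.96 for members under the minimum became 1.34, 1.34 and 1.60 with those scalings, where all entries under 50 reads gave 0.95, 0.96 and 1.14. It was 2.46 with a minimum of 20 reads, 1.56 with 200 and 2.65 without entries that overlap another. Genes of the other lists at least 2-fold higher numbered 15 of 57, where 26.1% of all measured entries were, and 8 under either TMM or median-of-ratios scaling, where 10.9% were. Leaving out name matches, copies or entries with overlapping windows moved no count of members by over 1.5 times. Alternatives on copies, on windows and on E2f8 were chosen after the data were seen. Each scaling moves all ratios by 1 factor. Of all 132 single ratios and role sums, which include some below 1, 22 lay above 1 as reported and came below 1 with median-of-ratios. No paired analysis was possible because each genotype had 1 library. With 1 library there was no replicate to leave out, and depth limits every member under 50 reads.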

Other observations

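Cyclin partners of the transcriptional CDKs have no number of the listed classes in their names and were looked up after the values of the kinases were seen. Ccnc, the partner of Cdk8, had 58 reads in MHC403 and 35 in WT, a ratio of 1.66 (1.07 to 2.60). Ccnt1 and Ccnt2, partners of Cdk9, had 59 and 69 reads and 163 and 133 reads, ratios of 0.86 (0.59 to 1.23) and 1.23 (0.97 to 1.56), so neither followed the 2.33-fold excess of the kinase. Ccnh, the partner of Cdk7, had 63 and 78 reads, a ratio of 0.81 (0.57 to 1.14), where Cdk7 had 1.76. Ccnk, the partner of Cdk12 and Cdk13, had 197 and 128, a ratio of 1.54 (1.23 to 1.94), between those of the 2 kinases.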
